A study of Mus musculus with 96 samples.

Results

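The miR-124 loci are the 3 mouse genes whose stem-loop precursors give miR-124. They were taken from the deposited table by miRBase stem-loop accession, as mir-124-1 (MI0000716), mir-124-2 (MI0000717) and mir-124-3 (MI0000150), 3 of the 1187 stem-loops listed. Cortical small RNA of 96 C57BL/6 mice had been sequenced, 1 library per mouse, in 12 groups of 8 with 4 females and 4 males each. Every knock-in mouse was heterozygous, with 1 wild-type *Htt* allele and 1 allele that carries human *HTT* exon 1 with 20, 50, 92 or 140 CAG repeats (denoted Q20, Q50, Q92 and Q140). The remaining groups were wild-type (WT) littermates from the Q20 line (denoted WT-Q20) and from the Q50 line (denoted WT-Q50). All 6 genotype groups were sampled at 6 and at 10 months of age. Controls were both WT groups and Q20, 24 libraries at each age. The labels give no WT littermates for Q92 and Q140, and house these mice with their own genotype, so that line, cage and genotype cannot be told apart for them. The methods of the study describe mixed cages, and which holds is not settled here.

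A microRNA locus is transcribed as a long primary RNA, from which a hairpin is cut and then trimmed to the mature strand that guides the silencing of messenger RNAs. miR-124 is among the most abundant microRNAs of the mammalian brain. It is enriched in neurons, represses many transcripts of non-neuronal cells during neuronal differentiation, and its genes are repressed outside neurons by the transcription factor REST. Wild-type huntingtin is known to hold REST in the cytoplasm, so that REST-controlled genes are of interest in Huntington's disease, which an expanded CAG repeat in *HTT* causes. The 3 loci encode the same main mature strand, and a short read of that strand fits all of them. The sequences of these stem-loops were not used here.

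The positions below are those of RefSeq in mouse build GRCm38.p6. *Mir124a-1* lies on chromosome 14 from 64590657 to 64590741, within an exon of the long noncoding RNA gene *Mir124a-1hg*. *Mir124a-2* lies on chromosome 3 from 17795662 to 17795770, within the long noncoding RNA gene *Mir124-2hg*. It is intronic to 5 of the overlapping transcripts of that gene, and its last 27 bases overlap the exon of another. *Mir124a-3* lies on chromosome 2 from 180894040 to 180894107, and its last 3 bases overlap the start of the long noncoding RNA gene *Gm27032*. The deposited FPKM values, which divide counts by library total and stem-loop length, imply lengths of 85, 109 and 68 bases for MI0000716, MI0000717 and MI0000150. These equal the RefSeq lengths of *Mir124a-1*, *Mir124a-2* and *Mir124a-3* in all 96 libraries.

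A library of 6 months held 4797427 to 7651621 counts, and a library of 10 months held 3698375 to 12142170. Of the 96 libraries, 12 stood apart in a connectivity screen and were left out of the fits (6 per age). The Q92 females of 10 months lost 3 of their 4 libraries in this way. Of the 84 kept, 42 were at each age. A set of 8 stem-loops was taken by the absolute size of their loadings on the leading principal component (main axis of variation) of the control libraries. The direction of each loading was not used. The summed level of the set varied widely among the kept libraries, from 304 to 19718 CPM (counts scaled to a common library total). In the libraries left out it ran from 478 to 68118 CPM, and in the 3 Q92 females among them from 31193 to 48373 CPM. Its correlation with mir-124-1, mir-124-2 and mir-124-3 across the 84 kept libraries was weak, with r of -0.07, 0.14 and -0.21. The label cortex could not be checked against marker microRNAs of cell types, because the files do not pair other accessions with names. In a bulk sample, fewer cells of a type and less RNA per cell cannot be told apart.

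Nearly all of the counts given to the 3 loci stood at mir-124-3. Its estimated count had a lowest value of 28116, a median of 49206 and a highest value of 93457 per library. It took 98.0 to 98.9% of the 3-locus sum. The estimated count of mir-124-1 ran from 340 through a median of 685 to 1279, or 1.05 to 1.97% of the sum. That of mir-124-2 ran from 10.7 through a median of 29.4 to 74.6, or 0.019 to 0.133% of the sum. The order of the loci was therefore the same in every library. Per stem-loop length, the median level was 111220 FPKM for mir-124-3, 1256 FPKM for mir-124-1 and 42.0 FPKM for mir-124-2. The FPKM of mir-124-3 was a median of 88.4 times that of mir-124-1 (range 62.1 to 117.8) and 2600.4 times that of mir-124-2 (range 1189 to 8199). By mean FPKM mir-124-3 ranked 25th, mir-124-1 ranked 213th and mir-124-2 ranked 367th of the 1187 stem-loops.

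The values of the minor loci had a regular pattern. The estimated counts of mir-124-1 and mir-124-2 were fractional in all 96 libraries, and those of mir-124-3 in 94. The sum of the 3 loci lay within 0.01 of a whole number in all 96 libraries. Values of mir-124-2 fell near whole multiples of 2.678 counts, within 0.1 of a step in 86 of 96 libraries. They amounted to 4 to 28 such steps, with a median of 11. Values of mir-124-1 fell as close to multiples of 4.994 counts in 76 of 96 libraries, and amounted to 68 to 256 steps. Each step was the one, between 1.5 and 8 counts, that these same values fitted best, so that the closeness is a description with no test. How the authors divided shared reads is not stated, so that the level of a single locus is uncertain. Whether it follows the transcription of that locus was not tested.

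Among the 96 libraries, the coefficient of variation within groups was 11.8% for mir-124-3, 15.6% for mir-124-1 and 36.9% for mir-124-2. After centring on the mean of each age, log2 CPM of mir-124-1 and mir-124-3 correlated with r = 0.59 over the 84 kept libraries. The same value was 0.10 for mir-124-2 with mir-124-3 and 0.08 for mir-124-1 with mir-124-2. These points share library, depth and the division of reads, and the values are a description only.

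The level of mir-124-3 overlapped among all groups of an age. All CPM values below use library totals scaled by TMM normalization, a factor that offsets differences in composition. At 6 months, mir-124-3 in WT-Q20 mice had a lowest, median and highest level of 6017, 7641 and 9039 CPM over 8 libraries. In WT-Q50 mice these were 6356, 7827 and 9720 CPM. In Q20 they were 6580, 8019 and 9088 CPM. These control groups overlapped along most of their ranges. The levels in Q50 were 6046, 8427 and 9460 CPM. Those in Q92 were 7287, 8010 and 9241 CPM, and those in Q140 were 6672, 7885 and 8996 CPM. All libraries of the expanded groups thus lay inside the range of the controls.

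At 10 months, mir-124-3 had a lowest, median and highest level of 6439, 7351 and 8654 CPM in WT-Q20 mice. In WT-Q50 mice these were 5752, 8089 and 9048 CPM, and in Q20 they were 5340, 7172 and 8329 CPM. The control groups again overlapped. The levels were 5812, 7335 and 8038 CPM in Q50. They were 5921, 6864 and 7564 CPM in Q92 and 6003, 6990 and 8284 CPM in Q140. No library of these 3 groups lay outside the range of the controls of the same age.

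**Figure D1:**
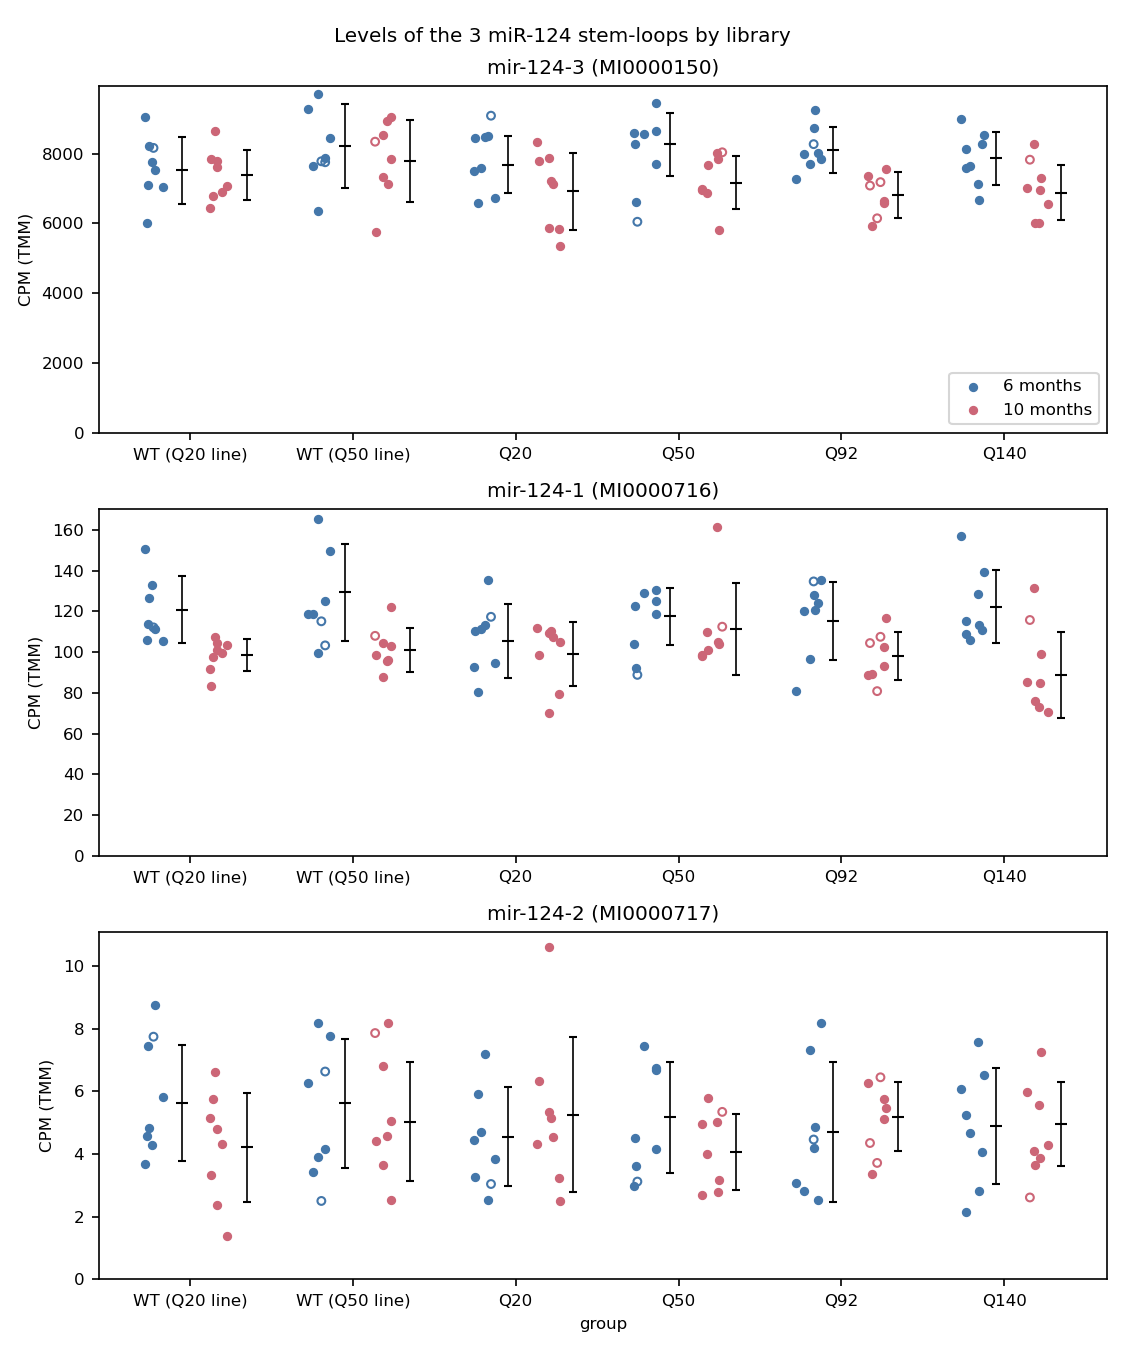
Level in CPM (TMM) of mir-124-3, mir-124-1 and mir-124-2 in each of the 96 libraries, by genotype group and age (blue, 6 months; red, 10 months), with the mean and SD of the kept libraries in black and libraries left out of the fits as open circles. Medians of mir-124-1 over the kept libraries run from 123 CPM in Q50 at 6 months to 84.7 CPM in Q140 at 10 months, while groups of the same age overlap at every locus.

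For mir-124-1, WT-Q20 mice had a lowest, median and highest level of 105, 113 and 150.4 CPM at 6 months, and of 83.2, 100.3 and 107 CPM at 10 months. In WT-Q50 mice these were 99.5, 119 and 165 CPM, then 87.7, 101 and 122 CPM. In Q20 they were 80.3, 111 and 136 CPM, then 69.9, 106 and 112 CPM. The median was lower at the later age in all of these control groups. The levels in Q50 were 88.8, 121 and 131 CPM at 6 months, then 98.1, 104 and 161 CPM at 10 months. Those in Q92 were 81.0, 122 and 136 CPM, then 80.9, 97.8 and 117 CPM. Those in Q140 were 106, 114 and 157 CPM, then 70.8, 85.1 and 132 CPM. Here too the later median was lower in each group, with overlap between the ages.

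The level of mir-124-2 was low, at a median of 29.4 estimated counts per library (range 10.7 to 74.6). Its medians over 8 libraries lay between 4.15 CPM in Q20 and 5.34 CPM in WT-Q20 mice at 6 months, and between 4.19 CPM in Q140 and 5.30 CPM in Q92 at 10 months. Single libraries ranged from 1.38 CPM, in a WT-Q20 library at 10 months, to 10.6 CPM, in a Q20 library at 10 months. No age or genotype separated from the others.

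Ordered by the median of the kept libraries, mir-124-1 had all 6 groups of 6 months (123 to 110.4 CPM) above all 6 groups of 10 months (106 to 84.7 CPM). The order of mir-124-3 began with Q50 at 6 months (8570 CPM), with WT-Q50 mice at 10 months in place 5 (7836 CPM). It ended with Q92 at 10 months (6644 CPM), where 5 libraries were kept. For mir-124-2 the order mixed the ages, from 5.47 CPM in Q92 at 10 months to 4.01 CPM in Q50 at 10 months. Over all 8 libraries the mir-124-2 median of Q92 at 10 months was 5.30 CPM, under the 5.34 CPM of WT-Q20 mice at 6 months. At each locus the ranges of all 11 pairs of neighbours in the order overlapped, and no pair of neighbouring means differed by more than their pooled SD. The highest group median exceeded the lowest 1.45 times for mir-124-1, 1.36 times for mir-124-2 and 1.29 times for mir-124-3.

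Whether an expanded repeat altered the loci was addressed by comparing Q50, Q92 and Q140 with the controls of the same age, with sex and the L field as covariates. The L field is a part of each sample's description (L1, L2 or L3) whose meaning the labels do not give. None of the 3 loci passed a false discovery rate (FDR) of 0.05 in any of the 6 comparisons by edgeR's quasi-likelihood test, and 0 of 3 did so by DESeq2. None reached an unadjusted p of 0.05 by edgeR with these covariates and controls, and 2 values did so under an alternative. Without the L field, mir-124-1 in Q50 at 10 months moved from 0.03 to 0.17 ± 0.08 (log2, SE), with a 95% interval from 0.0093 to 0.33 and an FDR of 0.661 by edgeR. Of the Q50 libraries of 10 months, 2 were L1, and no control of that age was. With the L field as a covariate, these 2 thus added nothing to the difference. With WT alone as controls, mir-124-3 in Q92 at 10 months moved from -0.09 to -0.18 ± 0.08, with a 95% interval from -0.35 to -0.010 and an FDR of 0.402 by edgeR. Log2 differences ranged from -0.09 to 0.11 for mir-124-3 (FDR 0.527 to 0.953) and from -0.15 to 0.04 for mir-124-1 (FDR 0.667 to 0.981). Those of mir-124-2 ranged from -0.36 to 0.15 (FDR 0.705 to 0.988). The 95% confidence intervals of the 6 comparisons together reached from -0.30 to 0.25 for mir-124-3 and from -0.34 to 0.22 for mir-124-1, on the log2 scale. For mir-124-2 they reached from -1.004, in Q50 at 10 months, to 0.75, in Q92 at 10 months.

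Over all stem-loops tested, the same threshold called 0% in Q50 at 6 months, 11.8% in Q92 at 6 months and 1.86% in Q140 at 6 months. At 10 months it called 0% in Q50, 0% in Q92 and 1.61% in Q140. The unadjusted p by edgeR was under 0.05 for 42 of 431 stem-loops in Q50 at 6 months. It was so for 32 of 437 in Q50 and 36 of 447 in Q92 at 10 months. DESeq2 called 4, 0 and 0 stem-loops in these 3 comparisons.

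The lowest unadjusted p among these comparisons was that of mir-124-1 in Q140 at 10 months. Its level over the kept libraries was 88.7 ± 21.2 CPM (SD, n = 7) in Q140 and 99.5 ± 11.5 CPM (SD, n = 23) in the controls. Of the kept Q140 libraries, 6 of 7 lay under the control median, and the ranges overlapped. The log2 difference was -0.15 ± 0.09 (SE), with a 95% interval from -0.34 to 0.03 and an FDR of 0.667 by edgeR. Within the kept L2 libraries alone the mean log2 difference was -0.14 (5 against 15 libraries). Male replicate 4 of Q140 was left out at a connectivity Z of -5.0003, barely past the limit of -5. It had 116 CPM, above the control median of 101 CPM. With all libraries the log2 difference was -0.11 ± 0.08 (SE, FDR 0.730 by edgeR). The level of mir-124-3 over the kept libraries was 6876 ± 794 CPM (SD, n = 7) in Q140, against 7349 ± 1028 CPM (SD, n = 23) in the controls. Its log2 difference was -0.08 ± 0.08 (SE, FDR 0.822 by edgeR), and -0.05 within L2.

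At 6 months the largest difference of mir-124-3 was in Q50, at 8266 ± 896 CPM (SD, n = 7), with 5 of 7 libraries above the control median of 7709 CPM. The log2 difference was 0.11 ± 0.07 (SE), with an FDR of 0.628 by edgeR, and 0.18 within the L1 libraries. In Q92 at 6 months mir-124-3 differed by 0.07 ± 0.07 (SE, FDR 0.527 by edgeR). The mean difference was 0.13 within L1 (4 against 11 libraries) and -0.02 within L2 (3 against 9). In Q140 at 6 months mir-124-3 differed by 0.01 ± 0.07 (SE, FDR 0.953 by edgeR). The mean difference was 0.11 within L1 (4 against 11 libraries) and -0.09 within L2 (4 against 9). These means over few libraries had opposite signs in L1 and L2 for Q92 and Q140, and were not tested. At 10 months mir-124-3 differed by -0.04 ± 0.10 in Q50 and by -0.09 ± 0.10 in Q92 (SE), which kept 5 libraries. Within the L3 libraries these values were -0.05 and -0.20.

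With the L field as a covariate, the remaining log2 differences of mir-124-1 lay between -0.02 and 0.04. For mir-124-2 at 6 months, the value within L1 and L2 was -0.39 and 0.11 in Q92 and -0.50 and 0.34 in Q140. The signs were again opposite, over the same few libraries and without a test. The largest difference of mir-124-2 was -0.36 ± 0.32 (SE) in Q50 at 10 months, with an FDR of 0.864 by edgeR and a value of -0.19 within L3.

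**Figure D2:**
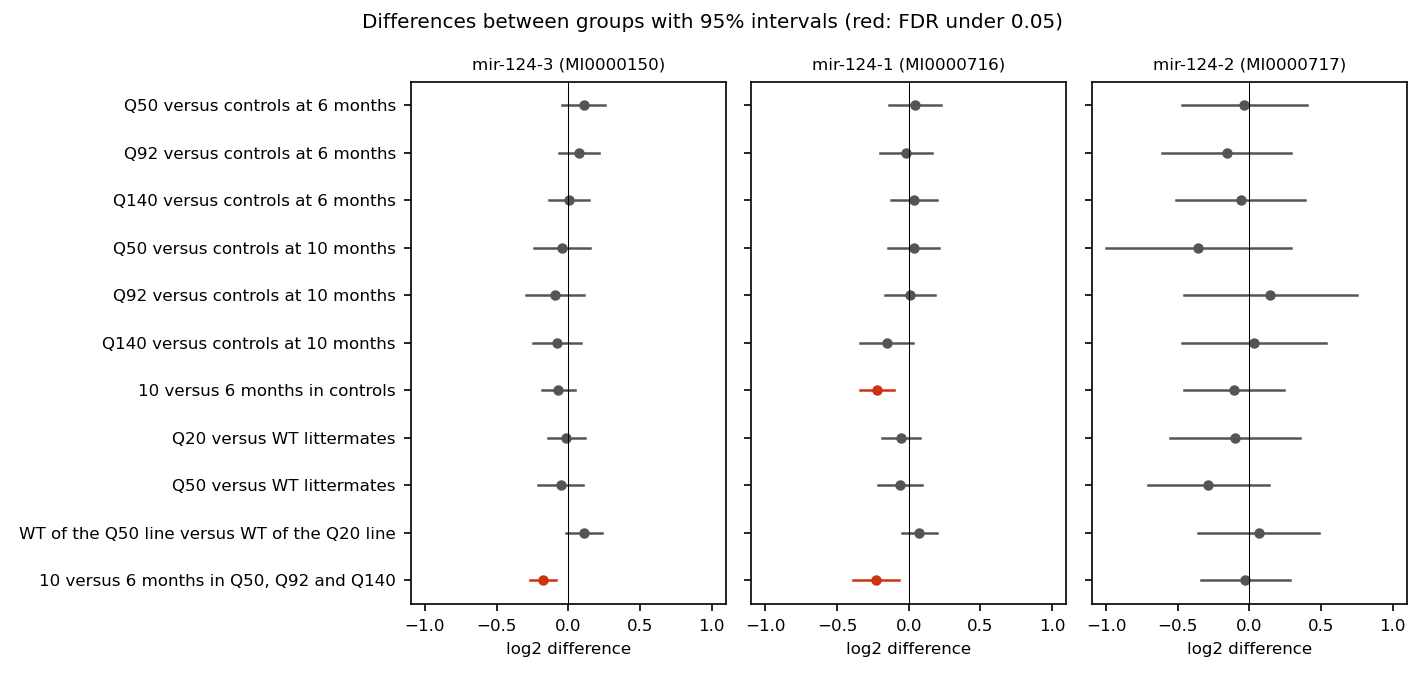
Log2 difference between groups for mir-124-3, mir-124-1 and mir-124-2 in 11 comparisons, as edgeR estimates (points) with 95% confidence intervals (bars); red marks an FDR under 0.05. Intervals exclude 0 for mir-124-1 between the ages in the controls (-0.22) and in Q50, Q92 and Q140 (-0.23), and for mir-124-3 between the ages in Q50, Q92 and Q140 (-0.18).

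With CAG length as a number (7 for WT), the slope per 100 repeats at 6 months was 0.02 ± 0.05 for mir-124-3, 0.01 ± 0.06 for mir-124-1 and -0.11 ± 0.16 for mir-124-2 (log2, SE). At 10 months the slopes were -0.08 ± 0.06, -0.10 ± 0.06 and 0.06 ± 0.17 in the same order. None of the 3 loci passed by edgeR, with FDR from 0.709 to 0.931 at 6 months and from 0.801 to 0.987 at 10 months, and none had an unadjusted p under 0.05. Over all stem-loops 12.3% were called at 6 months and 1.1% at 10 months. For mir-124-1 the slope was -0.09 within the L2 libraries of 10 months (n = 24) and -0.19 within L3 (n = 16). For mir-124-3 it was -0.04 and -0.18 in the same libraries. At 6 months the slope of mir-124-3 was 0.10 within L1 (n = 24) and -0.06 within L2 (n = 18).

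The slope at 10 months minus that at 6 months, a comparison added after the data had been seen, was -0.10 ± 0.08 for mir-124-1 (SE, FDR 0.547 by edgeR). It was -0.10 ± 0.08 for mir-124-3 (FDR 0.520) and 0.18 ± 0.23 for mir-124-2 (FDR 0.753). Over all stem-loops 1.69% were called.

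Age was the comparison in which a locus passed. In the controls, the level given to mir-124-1 was lower at 10 than at 6 months. Its median was 113 CPM at 6 months (n = 20) and 101 CPM at 10 months (n = 23), with overlapping ranges. Of the libraries of 10 months, 22 of 23 lay under the median of 6 months. The log2 difference was -0.22 ± 0.06 (SE), with a 95% interval from -0.34 to -0.10 and an FDR of 0.0018 by edgeR. The level of mir-124-3 went from a median of 7709 CPM to 7344 CPM, a log2 difference of -0.07 ± 0.06 (SE, FDR 0.317 by edgeR). That of mir-124-2 differed by -0.11 ± 0.17 (SE, FDR 0.629 by edgeR). In these controls the median level of the set of 8 stem-loops was 1366 CPM at the earlier age and 850.3 CPM at the later. With its level as a covariate, added after the data had been seen, the log2 difference of mir-124-1 was -0.22 ± 0.06 (SE). The call of mir-124-1 stands against a background in which 45.6% of all stem-loops tested were called between the ages. Whether the division of reads shared by the 3 loci differed between the ages was not tested.

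The same comparison in the Q50, Q92 and Q140 mice uses other libraries, and was added after the data had been seen. Here mir-124-1 was again lower at the later age, with a log2 difference of -0.23 ± 0.08 (SE) and an FDR of 0.0148 by edgeR. Its median was 120.5 CPM in the 22 earlier libraries and 98.7 CPM in the 19 later ones, and 17 of 19 later libraries lay under the earlier median. In these mice mir-124-3 was lower at the later age too, by -0.18 ± 0.04 (SE), with an FDR of 0.00104 by edgeR. Its median went from 8078 CPM to 6963 CPM, and 18 of 19 later libraries lay under the earlier median. The level of mir-124-2 differed by -0.03 ± 0.15 (SE, FDR 0.908 by edgeR). Over all stem-loops 48.3% were called. The set of 8 stem-loops had medians of 785 and 809.7 CPM here, and with its level as a covariate mir-124-1 differed by -0.21 ± 0.08 and mir-124-3 by -0.15 ± 0.04 (SE). Whether the age difference of mir-124-3 itself differed between controls and expanded mice was tested only as the change of the CAG slope given above, which did not pass.

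By genotype group, the mean log2 difference of mir-124-1 between 10 and 6 months was below 0 in 6 of 6 groups, from -0.48 in Q140 to -0.09 in Q20 and Q50. For mir-124-3 it was below 0 in 6 of 6 groups as well, from -0.25 in Q92 to -0.02 in WT-Q20 mice. For mir-124-2 it was below 0 in 3 of 6 groups. The L field was distributed unevenly between the ages, with 27 libraries in L1 and 21 in L2 at 6 months, and 2 in L1, 28 in L2 and 18 in L3 at 10 months. Within L2, the mean log2 difference of mir-124-1 was -0.38 in the controls (15 against 9 libraries) and -0.46 in the expanded mice (9 against 9). That of mir-124-3 was -0.19 and -0.17. Whether L2 stands for the same thing at both ages is not known, so that these values do not hold a batch constant. The labels do not say whether libraries of the 2 ages were prepared or sequenced together. The library names begin with numbers whose ranges at 6 and at 10 months are separate, and what these numbers stand for is not given. Age and any difference in preparation or sequencing thus cannot be told apart.

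The share of mir-124-1 in the 3-locus sum had a median of 1.52% in the controls of 6 months and 1.33% in those of 10 months. In the expanded mice these medians were 1.45% and 1.39%. In Q50 and Q20 the median share over 8 libraries was 1.41% and 1.30% at 6 months, against 1.39% and 1.36% at 10 months. In Q140 it was 1.55% at 6 months and 1.22% at 10 months. A lower share at the later age was thus not seen in every group. The share of mir-124-3 moved inversely, since it holds nearly all of the remainder.

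**Figure D3:**
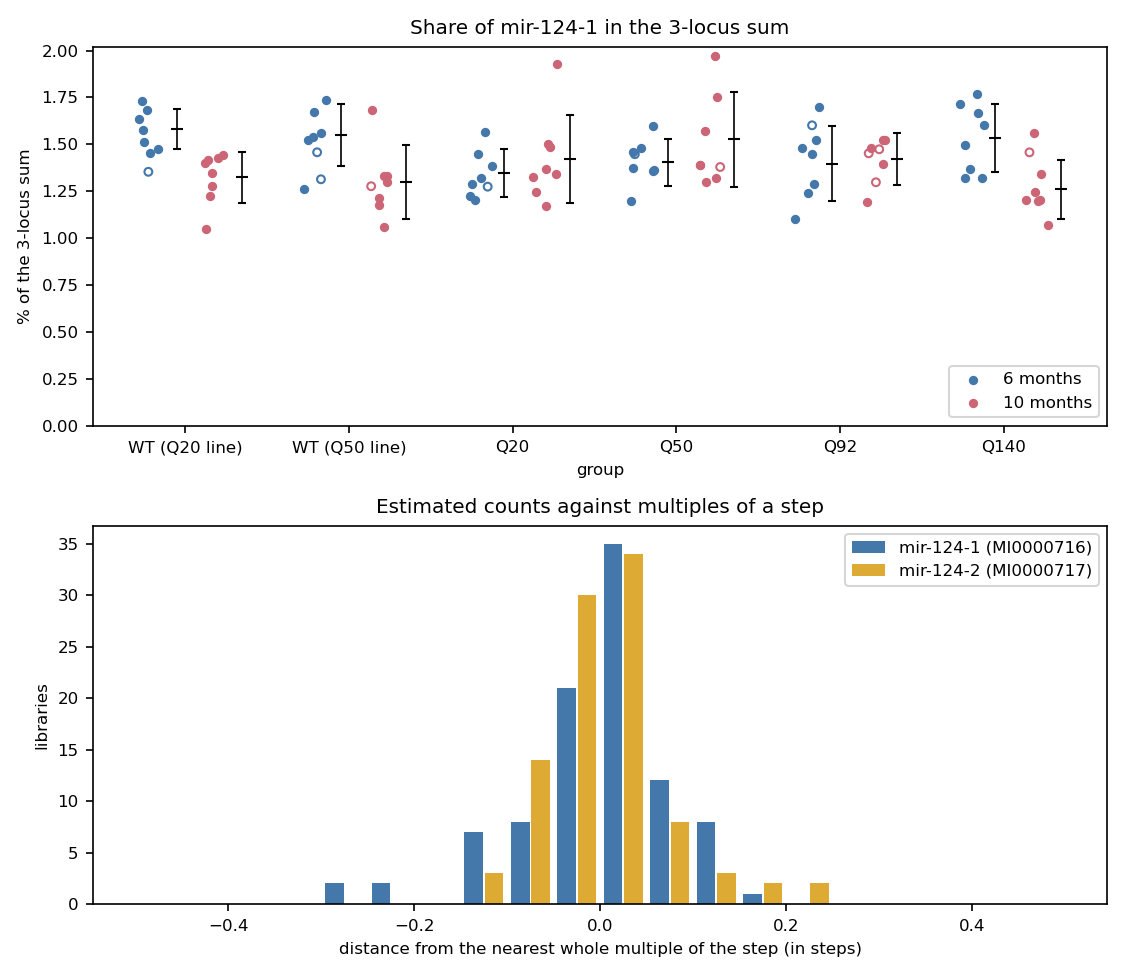
Upper panel, share of mir-124-1 in the summed counts of the 3 loci (%) by genotype group and age, with mean and SD of the kept libraries in black and libraries left out of the fits as open circles; shares lie between 1.05 and 1.97%. Lower panel, number of libraries by the distance of the estimated count from the nearest multiple of 4.994 counts (mir-124-1) or 2.678 counts (mir-124-2), each step being the one these values fitted best; most values gather around 0.

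Allele and line were separated where littermates were sequenced. Q20 mice differed from their WT littermates over both ages by -0.01 ± 0.06 for mir-124-3 and by -0.05 ± 0.06 for mir-124-1 (log2, SE, FDR 0.950 and 0.802 by edgeR). The difference of mir-124-2 was -0.10 ± 0.22. Within L1 and L2 the value of mir-124-3 was 0.13 and -0.09, and that of mir-124-1 was -0.15 and -0.07. Unlike the fits, these values within an L field are mean differences with both ages pooled and no age term. Q50 mice differed from theirs by -0.05 ± 0.08 for mir-124-3, -0.06 ± 0.08 for mir-124-1 and -0.29 ± 0.20 for mir-124-2 (log2, SE, FDR 0.976 for each by edgeR). Within L1, L2 and L3 the value of mir-124-2 was -0.65, 0.36 and -0.50, and that of mir-124-3 was 0.02, -0.06 and -0.18. Both ages were pooled here in the same way, so that age and genotype are mixed in these values. In both comparisons 0% of all stem-loops were called by edgeR. The unadjusted p by edgeR was under 0.05 for 39 of 419 and 14 of 416 stem-loops, and DESeq2 called 2 and 0.

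The WT-Q50 mice, which carry no knock-in allele, were compared with those of the Q20 line. The level of mir-124-3 was 7990 ± 1160 CPM (SD, n = 13) in the first and 7452 ± 813 CPM (SD, n = 15) in the second. The log2 difference was 0.11 ± 0.06 (SE), with a 95% interval from -0.02 to 0.24 and an FDR of 0.489 by edgeR. Within L1, L2 and L3 it was 0.24, 0.01 and 0.18, as mean differences with both ages pooled and no age term. The largest difference of mir-124-3 between an expanded group and the controls was also 0.11. The difference between the WT groups was 0.07 ± 0.06 for mir-124-1 and 0.07 ± 0.21 for mir-124-2 (log2, SE). Over all stem-loops 0.477% were called.

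Medians of females and males lay close together at each locus. At 6 months the median of mir-124-3 was 7913 CPM in females (n = 22) and 7952 CPM in males (n = 20), and at 10 months it was 7018 CPM in females (n = 21) and 7354 CPM in males (n = 21). For mir-124-1 the medians were 117 and 119 CPM at 6 months and 98.7 and 104 CPM at 10 months. The mean log2 difference, males minus females, lay between -0.09 and 0.06 over the 3 loci and both ages, under the SD within either sex. No test of sex was made.

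The stem-loops whose log2 CPM most resembled that of the 3-locus sum over the 84 kept libraries, each centred on its age, were MI0000578 (r = 0.86) and MI0000142 (r = 0.84). They were followed by MI0005550 and MI0021959 (r = 0.79 for both, with equal mean levels of 363 CPM) and by MI0000707 (r = 0.76). Over the 309 stem-loops compared, r ranged from -0.76 to 0.86 with a median of 0.02. MI0000142 is abundant (23408 CPM on average), and MI0000707 is not (31.7 CPM). The points share library, depth and composition, and the files give no names for these accessions.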

How the data were processed

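Per the methods of the study, adapter-clipped reads were aligned to mm10 with STAR and counted with HTSeq. The submitters' processing notes also name CASAVA 1.8.2. For the other tools the version is not given in sources used here. The authors deposited estimated counts per stem-loop, not normalized, and FPKM values, which were used for lengths and for levels between loci. The counts of the 3 loci were fractional in nearly all libraries, and the methods do not say how such values arose. The members and lists were chosen with earlier results of these data known. Estimated counts were rounded and fitted over the whole table in edgeR 4.0.16 (R 4.3.3; TMM, filterByExpr with a minimum count of 10, robust quasi-likelihood, Benjamini-Hochberg FDR 0.05). Libraries with a connectivity Z under -5 were left out. Covariates were sex and the L field, combined with age where both ages entered, and sex with genotype group for age. CPM values added 1 before log2 in descriptions. The likeness rule took the 5 highest correlations among stem-loops of at least 10 CPM. DESeq2 1.42.0 was an alternative. Lists by gene symbol (REST-linked microRNAs, cell type markers) could not be matched to accessions and were not analysed here. None of 336 pairs of libraries within a group agreed within sampling noise.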

Additional observations from a re-analysis of the deposited data

Results flagged for a closer look

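Each locus was examined in each of the 12 groups of 8 for a library far from the others, 36 examinations in all, of which chance flags about 1 in 20. Both libraries found were kept in the fits. In Q50 at 10 months, male replicate 4 had 161 CPM of mir-124-1 (MI0000716), against 112 CPM in the next library and a group median of 104 CPM. It was an L1 library, and no control of 10 months was. With the L field as a covariate, it thus added nothing to the Q50 difference from the controls. In Q20 at 10 months, female replicate 2 had 10.6 CPM of mir-124-2 (MI0000717), against 6.34 CPM in the next library and a group median of 4.84 CPM.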

How the results depend on the processing

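The number of loci called was the same under every alternative run: 0 of 3 in each comparison of genotype, CAG length, littermates or line, 1 of 3 between the ages in controls and 2 of 3 between the ages in Q50, Q92 and Q140. The FDR of mir-124-1 stayed between 0.0014 and 0.0039 in controls and between 0.0064 and 0.031 in expanded mice, and that of mir-124-3 in expanded mice between 0.00017 and 0.0053. The stricter filter (minimum count 50) left mir-124-2 untested in all comparisons but the change of slope. The covariate of miR-200 and miR-183 clusters by symbol was not run, because the names could not be matched. The summed level of the set of 8 stem-loops, chosen after seeing the data, took its place.

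Of 335 alternative values of single loci, 314 kept their direction and their side of the threshold and 21 changed sign, none of them called. Of the 314, 67 moved over 1.5 times. The cause was not tested. Outside the age comparisons 3 alternative values had an unadjusted p under 0.05 by edgeR (lowest FDR 0.378): mir-124-1 in Q50 (no L field) and mir-124-3 in Q92 (WT alone) at 10 months, and mir-124-3 between the WT lines with all libraries (0.11). With WT alone, mir-124-3 in Q140 at 10 months also moved, from -0.08 to -0.13. With the set level as covariate, mir-124-2 became 0.021 (Q50, 6 months), 0.068 (Q140, 6 months), -0.033 (Q140, 10 months) and 0.048 (CAG length, 6 months), while mir-124-1 and mir-124-3 became -0.010 and -0.0056 for CAG length at 6 months. With WT alone as controls, mir-124-1 became -0.032 (Q50, 6 months), -0.015 (Q140, 6 months) and -0.019 (Q92, 10 months). With all libraries, mir-124-3 became -0.0085 (Q140, 6 months), mir-124-1 became -0.0091 (Q92, 10 months), and mir-124-2 became -0.084 (Q140, 10 months) and -0.032 (CAG length, 10 months). Without a filter, mir-124-3 became -0.0033 (Q140, 6 months) and mir-124-1 became -0.0016 (CAG length, 6 months). Without the L field, mir-124-1 became -0.0036 (Q50, 6 months) and 0.013 (Q50 littermates), and mir-124-2 became 0.032 (Q20 littermates). With the stricter filter, mir-124-1 became -0.00042 (Q92, 10 months).

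With the replicate block (sex and number), the counts of called loci were again 0, 1 and 2, while mir-124-1 became -0.0072 (Q92, 10 months) and mir-124-2 became 0.025 (Q20 littermates). The median correlation of same-numbered libraries was 0.012 over 184 pairs, against -0.013 over 545 pairs of different number. Of 84 libraries, 26 correlated best with their own number. How many would do so by chance was not computed.

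Over all stem-loops, against 51 called in Q92 at 6 months, alternatives gave 12 (set level) to 81 (all libraries), and against 8 in Q140 at 6 months, 2 (set level) to 30 (DESeq2). Against 7 in Q140 at 10 months they gave 3 (no filter) to 22 (WT alone), and against 55 for CAG length at 6 months, 7 (set level) to 69 (all libraries). Against 5 for CAG length at 10 months they gave 3 (all libraries) to 6 (DESeq2), and against 2 between the WT lines, 1 (no filter) to 12 (DESeq2). Where none were called, the highest was 8 (Q92 at 10 months, all libraries). Against 8 for the change of slope they gave 0 (no filter) to 32 (DESeq2).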
